A study of Mus musculus with 4 samples.

Results

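A set of 10 genes that mark simple and biliary epithelium was followed in mouse liver tumors treated with carrier or with sorafenib, an oral inhibitor of RAF kinases and of VEGF and PDGF receptors. They were 10 of the 39179 genes measured and were chosen by name: the keratins Krt7, Krt8, Krt18, Krt19 and Krt23, the adhesion protein Epcam, the transcription factor Sox9, the secreted phosphoprotein Spp1 (osteopontin), and the claudins Cldn4 and Cldn7. Each symbol stood on 1 row of the files. The study held 4 libraries, called C1 and C2 (carrier replicates 1 and 2) and S1 and S2 (sorafenib replicates 1 and 2), all from tumors of wild-type C57BL/6 mice whose hepatocytes received transposons encoding Myc and the oncogenic NrasG12V by hydrodynamic injection. Carrier or sorafenib was given every second day for 3 weeks. The carrier tumors thus share both oncogenes with the sorafenib tumors, normal liver was not among the groups, and the labels do not say whether replicates came from separate mice.

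Keratins are intermediate filament proteins that polymerise only as pairs of a type I and a type II chain. Hepatocytes normally make a single pair, type I Krt18 with type II Krt8, whereas bile duct cells add type I Krt19 and type II Krt7. Sox9 is a transcription factor of bile duct cells, and Epcam, Cldn4 and Cldn7 are membrane proteins of duct epithelium. Spp1 is made by duct cells, but also by macrophages, stellate cells and liver tumor cells.

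The tumors carried a hepatocyte keratin pattern with few duct transcripts. Levels are given in CPM (reads per 1000000 counted reads) and, between genes, in RPKM (CPM per kilobase of merged exons). Krt8, Krt18 and Spp1 exceeded 100 RPKM in both carrier libraries, while the other 7 genes were below 10 RPKM in every library. Krt8 and Krt18 were lower in S1 and S2 than in C1 and C2, at nearly the same ratio of the pair in all 4, but no member passed the test. The duct genes Krt7, Epcam, Sox9 and Cldn7 overlapped between the groups. Most of the reads of the 10 genes came from the pair that hepatocytes also express and from Spp1, and the genes typical of bile ducts rested on few reads.

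Depth was 4067427 to 5932939 recovered reads per library, and 12005 to 13270 genes reached 1 CPM. S2 stood apart from the other libraries. The summed level of 7 oncofetal liver tumor genes (Afp, H19, Igf2, Gpc3, Igf2bp3, Dlk1 and Cd34) was 38191 CPM in C1, 33080 in C2, 15208 in S1 and 85.2 in S2. The hepatocyte marker Alb was at 71696 to 107514 CPM in all 4 libraries, and each of the 15 hepatocyte markers exceeded 100 CPM in every library. Values are therefore given for each sorafenib library, and the tests were also run without it. Where values stand as pairs, those of C1 and C2 come before "against" and those of S1 and S2 after it. In bulk tissue, fewer cells of a type and less RNA per cell cannot be told apart.

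Krt8 (ENSMUSG00000049382, chromosome 15, 101996698 to 102004482 on GRCm38, minus strand) and Krt18 (ENSMUSG00000023043, chromosome 15, 102028180 to 102032027, plus strand) are protein-coding neighbors that point away from each other, with 23698 bases between their annotated starts. Their promoters are shown with those of Krt23 and Spp1, since these were the 4 members with the most reads. Each window runs from 250 bases before to 50 after the start annotated by RefSeq on GRCm38.p6, 5′ to 3′ on the strand of the gene. Capitals mark matches, on either strand, to TATAAA of core promoters, to TGANTCA of AP-1 factors, to the E-box letters CACGTG, to ACAATG of SOX factors or to GGAATG of TEAD factors.
Krt8, chr15:102004293-102004592, minus strand: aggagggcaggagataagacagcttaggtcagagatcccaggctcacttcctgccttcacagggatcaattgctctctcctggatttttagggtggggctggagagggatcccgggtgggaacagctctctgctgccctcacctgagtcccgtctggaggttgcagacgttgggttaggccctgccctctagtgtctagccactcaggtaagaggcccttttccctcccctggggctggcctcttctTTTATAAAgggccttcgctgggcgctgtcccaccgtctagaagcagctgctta
Krt18, chr15:102027966-102028265, plus strand: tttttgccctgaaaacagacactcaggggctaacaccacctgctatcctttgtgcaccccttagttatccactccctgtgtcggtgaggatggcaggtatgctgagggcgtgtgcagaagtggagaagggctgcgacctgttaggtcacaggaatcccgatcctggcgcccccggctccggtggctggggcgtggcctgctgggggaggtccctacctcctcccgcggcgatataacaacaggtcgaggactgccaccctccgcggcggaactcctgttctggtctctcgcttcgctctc
Krt23, chr11:99493071-99493370, minus strand: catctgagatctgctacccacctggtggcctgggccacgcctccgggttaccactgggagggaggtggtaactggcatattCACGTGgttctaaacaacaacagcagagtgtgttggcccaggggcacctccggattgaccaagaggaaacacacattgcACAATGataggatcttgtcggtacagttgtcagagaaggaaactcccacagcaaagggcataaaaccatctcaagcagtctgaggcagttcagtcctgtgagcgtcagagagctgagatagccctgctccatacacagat
Spp1, chr5:104434861-104435160, plus strand: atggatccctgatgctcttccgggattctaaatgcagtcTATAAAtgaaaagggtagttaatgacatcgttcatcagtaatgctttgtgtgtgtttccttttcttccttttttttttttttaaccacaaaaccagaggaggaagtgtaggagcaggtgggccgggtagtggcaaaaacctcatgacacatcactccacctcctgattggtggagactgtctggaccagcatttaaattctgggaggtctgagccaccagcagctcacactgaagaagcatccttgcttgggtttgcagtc

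The Krt8 window held 2 overlapping matches to TATAAA, 1 on each strand, across the start annotated by RefSeq. That start lies downstream of 102004482, the Krt8 start used for the gene position and the distance above. The Krt18 window held no match to any of the motifs. The Krt23 window held CACGTG and ACAATG, and the Spp1 window held TATAAA 211 bases before the start. Windows were found for 8 of the 10 members. Among the other members, TGANTCA matched at 2 places in the Cldn4 window, GGAATG once in a Cldn7 window and CACGTG once in the Epcam window. Of all 32851 windows of this length, 13.6% held TATAAA, 7.81% TGANTCA, 7.15% CACGTG, 12.6% ACAATG and 14.7% GGAATG. These matches are descriptions of the letters and not sites of binding.

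Krt8, the type II chain of the hepatocyte pair, was at 288.7 CPM in C1, 311.5 in C2, 196.7 in S1 and 128.3 in S2. The groups did not overlap, and the lowest value was in S2. The carrier mean was 300.1 ± 16.1 CPM and the sorafenib mean 162 ± 48.4 CPM (SD over 2 libraries per group). The log2 fold change, sorafenib minus carrier on log2(CPM + 1), was -0.91 (SE 0.26, 95% interval -1.55 to -0.27), with a limma p of 0.0129 and an adjusted p of 0.24 over 13149 tested genes.

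Krt18, its type I partner, was at 516.9 CPM in C1, 603.7 in C2, 394.4 in S1 and 227 in S2. The order of the libraries was the same as for Krt8, again without overlap. The log2 fold change was -0.90 (SE 0.31, 95% interval -1.65 to -0.14), with a limma p of 0.0268 and an adjusted p of 0.25. The difference of Krt18 was -0.50 without S2 and -1.30 without S1, and that of Krt8 was -0.61 without S2 and -1.22 without S1. The values of 13149 genes had a median log2 fold change of -0.26 on CPM, and of -0.04 when libraries were scaled by TMM factors. With TMM factors, Krt8 had a log2 fold change of -0.66 and Krt18 of -0.65, so the differences from the median gene were close on either scale.

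The level of Krt18 over Krt8 hardly varied. The ratio of their CPM was 1.79 and 1.94 in C1 and C2, and 2.01 and 1.77 in S1 and S2. The log2 ratio differed by 0.01 between groups (exact permutation test over libraries, two-sided, p = 1, where 2 against 2 cannot go below p = 0.333). That difference is smaller than the SD between replicates, which was 0.08 in carrier and 0.13 in sorafenib tumors. Per kilobase of merged exons, Krt18 had 2.41 to 2.73 times the level of Krt8 in the 4 libraries.

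**Figure D1:**
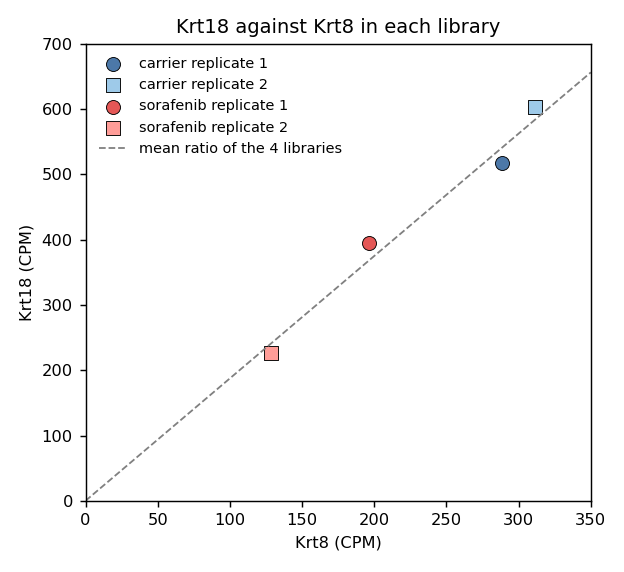
Krt18 (vertical axis, CPM) against Krt8 (horizontal axis, CPM), 1 point per library, with a dashed line at the mean ratio of the 4 libraries. All points lie near the line, at ratios of 1.77 to 2.01, while the sorafenib libraries lie lower on both axes.

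In the centred log2(CPM + 1) profile over the 4 libraries, Krt18 was the 92nd nearest of 13148 genes to Krt8, at a root mean square difference of 0.0761. The nearest to Krt8 were Aqr (0.00771), Serbp1 (0.016) and Bbs7 (0.0186). The nearest to Krt18 were Pam (0.0209), Glg1 (0.0242) and Sorbs2 (0.0261). With 4 libraries, many genes share a profile.

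Together Krt8 and Krt18 took over 96% of the keratin reads in every library. Of the reads of 51 keratin genes, they held 97.3% (Wilson 95% interval 96.8 to 97.7) and 96.2% (95.6 to 96.7) in C1 and C2, and 98% (97.3 to 98.5) and 97.6% (96.8 to 98.2) in S1 and S2. These intervals cover counting error only. The share was lowest in C2, whose interval did not overlap those of the other libraries, while the summed keratin level was 828 CPM in C1, 952 in C2, 603 in S1 and 364 in S2.

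In RPKM, carrier tumors expressed Krt18 at 389.9 ± 42.7, Spp1 at 341 ± 81.5 and Krt8 at 153 ± 8.21 (SD, n = 2). Krt18 and Spp1 did not differ beyond their spread. Both lay above Krt8. Krt8 exceeded 97.8% and 98% of the tested genes in the carrier libraries and 96.4% and 94.7% in S1 and S2. Krt23 followed at 6.54 ± 4.22 RPKM and Krt19 at 2.16 ± 1.26 RPKM, a gap close to the SD of Krt23. Next came Sox9 (0.799 ± 0.612 RPKM), Cldn7 (0.604 ± 0.242), Epcam (0.549 ± 0.56), Cldn4 (0.243 ± 0.05) and Krt7 (0.22 ± 0.143). Within these 5, neighbors in the order overlapped. The Krt7 length of 7049 bases merges all annotated exons, so its value per length is a low estimate if shorter transcripts prevail.

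In sorafenib tumors, the levels per length were 216 ± 82.3 RPKM for Krt18, 185 ± 180 RPKM for Spp1 and 83 ± 24.7 RPKM for Krt8. Krt18 lay above Krt8 in both libraries, and Spp1, at 312 RPKM in S1 and 58.3 RPKM in S2, overlapped both. Krt23 was at 1.99 ± 0.744 RPKM, and the remaining members were below it on average.

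**Figure D2:**
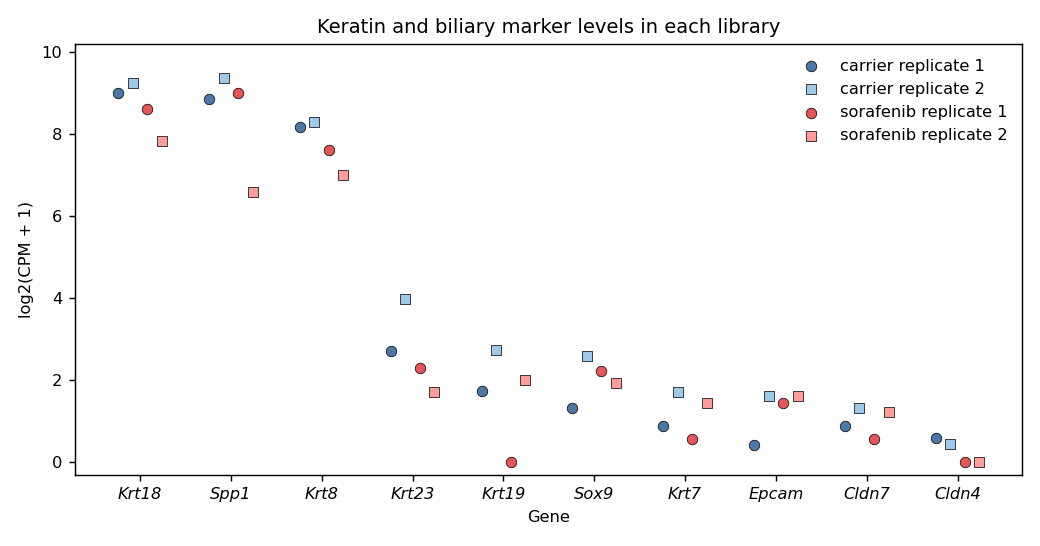
Level of each gene as log2(CPM + 1), 1 point per library, with carrier libraries in blues and sorafenib libraries in reds. Krt18, Spp1 and Krt8 stand far above the other 7 genes, and Krt19 has a point at 0 in S1, as Cldn4 has in S1 and S2.

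Spp1 (ENSMUSG00000029304, chromosome 5, 104435118 to 104441050, plus strand) encodes osteopontin, a ligand of integrins and CD44. It was at 467.1 CPM in C1, 657.1 in C2, 514.8 in S1 and 96.1 in S2. S1 lay between the carrier libraries, so the groups overlapped and the low group mean came from 1 library. On the log2 scale the groups differed by -1.31 (SE 0.73, limma adjusted p = 0.339), and -0.11 without S2 (limma adjusted p = 0.868). Without S1 the difference was -2.52 (limma adjusted p = 3.43e-07). Such a fit takes the spread of the remaining sorafenib library from the carrier pair.

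Genes with a profile near that of Spp1 were Itih5 (root mean square difference 0.103), Nck2 (0.109) and Sstr2 (0.12). All were at their lowest in S2. Markers of macrophages, a known source of Spp1, were also lower in the sorafenib libraries: the summed level of 13 markers was 451 CPM in C1, 468 in C2, 225 in S1 and 94.3 in S2. Adgre1, a defining macrophage marker, was at 5.73 and 7.73 CPM against 1.48 and 0.953 CPM. Of the 13, 12 were lower in S1 and S2 than in C1 and C2, against 41.3% of all tested genes, and none was at 0. In S1 the macrophage sum was lower than in either carrier library while Spp1 was not. The part of macrophages or of tumor cells in the Spp1 value was not tested.

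Krt23 (ENSMUSG00000006777, chromosome 11, 99477974 to 99493137, minus strand), a type I keratin, was at 5.56 CPM in C1, 14.9 in C2, 3.93 in S1 and 2.29 in S2. The groups did not overlap, although the carrier libraries differed from each other by more than C1 differed from the sorafenib libraries. The values rest on 33, 79, 16 and 12 reads. On the log2 scale the groups differed by -1.34 (SE 0.53, limma adjusted p = 0.258), by -0.70 without C2 and by -1.98 without C1.

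Krt19 (ENSMUSG00000020911, chromosome 11, 100140810 to 100148665, minus strand), the type I keratin of bile ducts, was at 2.36 and 5.66 CPM in C1 and C2, on 14 and 30 reads. It had 0 reads in S1, which allows up to 0.738 CPM, and 16 reads or 3.05 CPM in S2. The sorafenib libraries therefore lay on different sides of C1. On the log2 scale the groups differed by -1.23 (SE 0.73, limma adjusted p = 0.36), a value that depends on the pseudocount because of the library at 0. Without S2 the difference was -2.24 (limma adjusted p = 0.0157), and without S1 it was -0.22 (limma adjusted p = 0.723). The nearest profiles were those of Sult2a5 (root mean square difference 0.0598) and Gm16861 (0.287), followed by a gene without a symbol (0.296).

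Krt7 (ENSMUSG00000023039, chromosome 15, 101411043 to 101430313, plus strand), the type II keratin of bile ducts, was at 0.843 CPM in C1, 2.26 in C2, 0.492 in S1 and 1.72 in S2. These are 5, 12, 2 and 9 reads, with overlapping groups and a difference of -0.29 on the log2 scale (SE 0.48) at a limma adjusted p of 0.74. An antisense gene, Gm671, shares 77 exon bases with Krt7, and the lincRNA Gm36026 shares 101 with Krt8 on the opposite strand. A transcript of the same strand, Gm42793, shares 309 exon bases with Spp1, so reads there cannot be assigned with certainty.

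The ratios of duct to hepatocyte keratins were low and variable. Per length, the ratio of Krt19 to Krt18 was 0.00354 in C1, 0.00726 in C2, 0 in S1 and 0.0104 in S2. The log2 ratio of Krt19 to Krt18, with a pseudocount of 1 CPM, differed by -0.33 between groups (exact permutation test, two-sided, p = 1), and by -1.21 with a pseudocount of 0.25 CPM. That of Krt7 to Krt8 differed by 0.63 (exact permutation test, two-sided, p = 0.667). Both were smaller than the SD between S1 and S2, which was 1.99 for the first ratio and 1.04 for the second.

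Sox9 (ENSMUSG00000000567, chromosome 11, 112782224 to 112787760, plus strand) was at 1.52 CPM in C1, 5.09 in C2, 3.69 in S1 and 2.86 in S2. Both sorafenib libraries lay between the carrier libraries. The log2 fold change was 0.12 (SE 0.51, 95% interval -1.12 to 1.36, limma adjusted p = 0.901). The nearest profiles were those of Btbd7 (root mean square difference 0.0875), Fmn1 (0.0985) and Angptl8 (0.104).

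Epcam (ENSMUSG00000045394, chromosome 17, 87635979 to 87651129, plus strand) was at 0.337 CPM in C1, 2.08 in C2, 1.72 in S1 and 2.1 in S2. The low value, 2 reads in C1, has an exact Poisson 95% interval of 0.0408 to 1.22 CPM, which reaches into the intervals of the other libraries. On the log2 scale the groups differed by 0.52 (SE 0.49, limma adjusted p = 0.548), and -0.08 without C1. Epcam lay near Ptgds (root mean square difference 0.0455), Celf2 (0.0708) and Cep70 (0.0723).

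Cldn7 (ENSMUSG00000018569, chromosome 11, 69964779 to 69967885, plus strand), a claudin of duct and gut epithelium, was at 0.843 CPM in C1, 1.51 in C2, 0.492 in S1 and 1.33 in S2. The groups overlapped, with a difference of -0.20 on the log2 scale (SE 0.40) at a limma adjusted p of 0.78. Cldn4 (ENSMUSG00000047501, chromosome 5, 134945119 to 134946934, minus strand), another claudin of simple epithelium, had 3 and 2 reads in the carrier libraries and 0 in both sorafenib libraries. All 4 values are at or below 3 reads, so no fold is given, and Cldn4 was the 1 member below the filter of 1 CPM in 2 libraries.

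No member passed the test. limma called 0 of the 9 tested members at an adjusted p of 0.05, against 0.0% of all 13149 genes. At an unadjusted p under 0.05, 3 of the 9 were lower (Krt8, Krt18 and Krt23), against 12.9% of all genes. The 3 came to 1 (Krt8) with TMM or RLE factors, 2 (Krt8 and Krt18) with upper-quartile factors, and 0 without C2. edgeR's quasi-likelihood test called 0 of 9 (2 at an unadjusted p under 0.05, as were 2271 of all 13149 genes, with 0.0% of all genes called), and DESeq2 called 0 of the 6 with an adjusted p (2 of 9 at an unadjusted p under 0.05, as were 1846 of 13149 genes). DESeq2 called 4.29% of all genes with an adjusted p, and 0.43% as lower.

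Both sorafenib libraries lay below both carrier libraries for 3 of the 9 tested members, against 41.3% of all tested genes, and above both for 0 of 9, against 17.5%. The share of members that were lower in both is thus no greater than the background. The median log2 fold change of the 9 was -0.90, against -0.26 for all tested genes. Within single libraries the median was -0.53 in S1 (-0.10 for all genes) and -0.22 in S2 (-0.40 for all genes). The members differed in which library was low: in S1 Krt19 was lowest relative to carrier, and in S2 Spp1 was.

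Leaving out a sorafenib library changed the calls. Without S1, limma called Krt8 (adjusted p = 0.000227), Krt18 (0.000165), Krt23 (0.0094) and Spp1, 4 of 9 and all as lower, where 39.2% of all genes were called and 29.8% as lower. Without S2 it called Krt19, 1 of 9 and as lower, where 3.03% of all genes were called and 1.27% as lower. Krt8, Krt18, Krt23 and Spp1 had limma adjusted p of 0.131, 0.242, 0.254 and 0.868 in that fit.

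**Figure D3:**
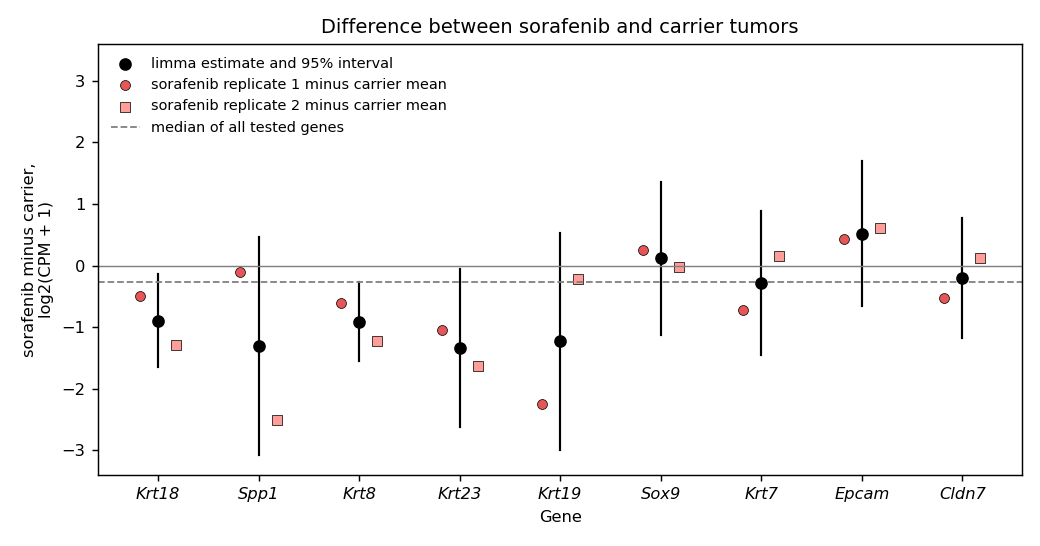
Difference between sorafenib and carrier tumors on log2(CPM + 1) for the 9 tested genes. Black points and lines are limma estimates with 95% intervals, colored points are each sorafenib library minus the mean of the carrier libraries, and the dashed line at -0.26 is the median of all tested genes. The library values are close to each other for Epcam and Sox9 and far apart for Spp1 and Krt19.

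The carrier libraries themselves differed in these genes. All 9 tested members were higher in C2 than in C1, whereas 45.4% of all tested genes were. Krt7 was 2.69, Krt19 2.4, Krt23 2.68, Epcam 6.16 and Sox9 3.36 times as high in CPM in C2, while Krt8 and Krt18 were 1.08 and 1.17 times as high. The summed level of Krt7, Krt19, Epcam, Sox9, Cldn4 and Cldn7, a set formed after these values were seen, was 6.4 CPM (exact Poisson 95% interval 4.53 to 8.79) in C1 and 17 CPM (13.7 to 20.9) in C2. In S1 and S2 it was 6.39 CPM (4.18 to 9.37) and 11.1 CPM (8.39 to 14.3). The spread between the carrier libraries was thus nearly as wide as the whole range of the 4 libraries.

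Of 12 cholangiocyte markers, which include Krt7, Krt19, Epcam, Sox9 and Spp1, 10 were tested, and 2 (Bicc1 and Aqp1) were lower in both sorafenib libraries, against 41.3% of all tested genes. The chloride channel Cftr was at 0 to 0.246 CPM, and the secretin receptor Sctr had reads only in S2, at 0.381 CPM. Cftr and Sctr, both defining for ducts, were thus at or near 0 in these tumors.

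Other biliary and progenitor markers were more often lower than higher in sorafenib tumors, as were all tested genes. Of 30 symbols, 23 were tested and 0 passed the limma test, with 12 lower and 1 higher in both sorafenib libraries and a median log2 fold change of -0.54. Of all tested genes, 41.3% were lower and 17.5% higher in both, with a median of -0.26, and the counts of the lists that follow are to be read against these shares. Prom1, a progenitor surface protein, was at 51.2 CPM in C1, 53 in C2, 20.7 in S1 and 4.19 in S2. Cd24a, a surface glycoprotein of progenitor cells, was at 4.38 and 6.23 against 1.48 and 1.52 CPM. Onecut2, a transcription factor of hepatocyte and duct development, was at 34.9 and 45.7 against 73 and 142.8 CPM, and Hhex, a factor of early liver development, at 24.4 and 44.7 against 51.9 and 41 CPM. Of the 23 tested genes, Onecut2 was the 1 above both carrier libraries in both sorafenib libraries. Of the 23, 20 were higher in C2 than in C1, the same order as for the members.

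Tspan8, a tetraspanin named after its values were seen, was at 183.7 CPM in C1, 247.1 in C2, 98.3 in S1 and 0.572 in S2. Its difference of -4.10 on the log2 scale (SE 1.72), with a limma adjusted p of 0.261, was the largest in size of the list, and its lowest library was also the lowest in the oncofetal sum.

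Apart from Krt20 and Krt10, other keratins were nearly silent. Of 20 keratins outside the members, 18 were below the filter, and 0 of the 2 tested passed. Krt20, a type I keratin of gut and bladder epithelium, was at 11 CPM in C1, 10.8 in C2, 2.95 in S1 and 0.191 in S2, a difference of -2.45 on the log2 scale (SE 0.60) at a limma adjusted p of 0.24. It was lower in S1 and S2 than in C1 and C2, which were close to each other. Krt10, a type I keratin of the epidermis, was at 1.69 and 2.45 against 3.2 and 1.14 CPM.

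Proteins that anchor or flank keratin filaments had 16 tested genes, 0 past the limma test, 6 lower and 3 higher in both sorafenib libraries, with a median of -0.29. Vim, the filament protein of mesenchymal cells, was at 80.6 and 86.8 against 44.5 and 16 CPM. Lmna, which forms the nuclear lamina, was at 164.8 and 136.2 against 90.5 and 50.7 CPM. Dsc2, a desmosomal cadherin, was at 39.3 and 59.4 against 60.5 and 104.4 CPM, and Fbf1, a keratin-binding centriole protein, at 34.2 and 31.1 against 40.6 and 208.5 CPM. The higher genes of this list included the desmosomal cadherins, which join keratin filaments between cells, and Vim and Lmna belong to other filament systems.

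Of the other claudins and tight junction genes, 16 were tested, 0 passed the limma test, 9 were lower and 0 higher in both sorafenib libraries, and the median was -0.57. Cldn1 and Cldn3, claudins of hepatocytes and ducts, were at 73.2 and 109.8 against 66.9 and 34.9 CPM, and at 152.7 and 137.5 against 144.8 and 79.5 CPM. Marveld2, the tricellular junction protein, was at 24.9 and 28.9 against 17.7 and 10.5 CPM. Cldn12 was at 55.1 and 66.4 against 63.4 and 59.7 CPM, and Marveld3 at 1.85 and 1.51 against 2.7 and 1.14 CPM.

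Notch, YAP and WNT genes, which steer duct fate, had 19 tested members, 0 past the limma test, 11 lower and 2 higher in both sorafenib libraries, with a median of -0.59. Tead4, a DNA-binding partner of YAP, was at 7.75 and 6.41 against 2.7 and 0.191 CPM, and the YAP target Ctgf at 18 and 19.2 against 10.1 and 3.43 CPM. Axin2, a WNT target, was at 1.69 and 1.13 against 3.2 and 4.96 CPM, and the R-spondin receptor Lgr4 at 52.1 and 53.8 against 64.2 and 60.8 CPM. Notch2, the main Notch receptor of duct formation, was at 53.6 and 64 against 39.1 and 37.9 CPM, and its ligand Jag1 at 6.91 and 12.1 against 10.1 and 8.39 CPM.

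Receptors of osteopontin had 9 tested genes, 0 past the limma test, 6 lower and 1 higher in both sorafenib libraries, with a median of -0.56. Cd44 was at 11.8 and 10.9 against 5.9 and 3.05 CPM and Itga5 at 53.3 and 61.7 against 39.3 and 28.6 CPM. Itga4 was at 9.1 and 9.62 against 12.5 and 27.6 CPM, and Itgb3 at 3.88 and 3.21 against 3.93 and 3.81 CPM. Unlike Spp1, Cd44 was lower in S1 than in both carrier libraries. With TMM, RLE and upper-quartile factors the medians of these 5 lists stayed below 0, but for the filament partners the median was between -0.10 and -0.03. That is close to all tested genes, whose medians with these factors were -0.04, -0.02 and -0.09.

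**Figure D4:**
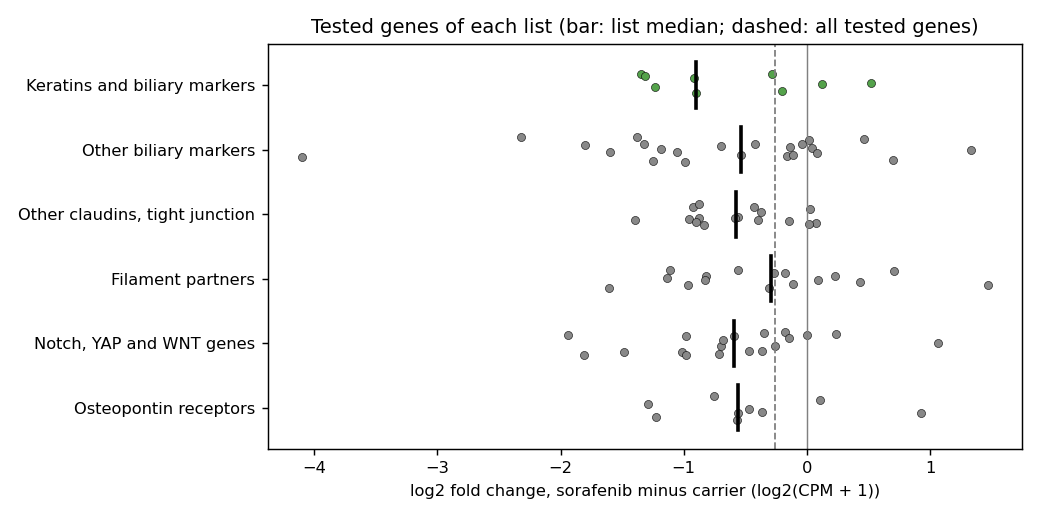
Log2 fold change, sorafenib minus carrier on log2(CPM + 1), of each tested gene in 6 lists, with the list median as a bar and the median of all tested genes dashed at -0.26. The medians lie between -0.90 and -0.29, and each list has genes on both sides of 0.

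Markers of other cell types differed between the same libraries. Summed stellate cell and fibroblast markers were at 469 CPM in C1, 667 in C2, 399 in S1 and 374 in S2, with 7 of 12 lower and 2 higher in both sorafenib libraries. Endothelial markers were at 417 and 440 against 334 and 136 CPM, with 9 of 12 lower in both. The 6 mesothelial markers, from cells that also express Krt8, Krt18 and Krt19, summed to 4.05 and 5.47 against 1.23 and 0.762 CPM. In C1 and C2, mesothelial Upk3b was at 1.01 and 0.755 CPM and Wt1 at 0.337 and 0.377 CPM. Both were at 0 in S1 and S2, where the floor of 3 reads was 0.738 and 0.572 CPM, and neither reached the filter. Gpm6a, of the same list, was at 0.843 and 0.943 against 0.738 and 0.572 CPM. Hepatocyte markers summed to 139126 CPM in C1, 152188 in C2, 130897 in S1 and 122373 in S2, with 4 of 15 lower and 9 higher in both. Alb, the largest part of this sum in every library, was among the lower, so the sum mostly follows Alb. The median log2 fold change of the 15 was 0.91, against -0.26 for all tested genes. Lymphocyte markers summed to 13 and 8.87 against 9.1 and 7.43 CPM, neutrophil markers to 26 and 28.1 against 21.4 and 5.91 CPM, and erythroid markers to 307.6 and 243.4 against 208.5 and 48.2 CPM. Their part in the values of Krt8, Krt18 and Spp1 was not tested.

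**Figure D5:**
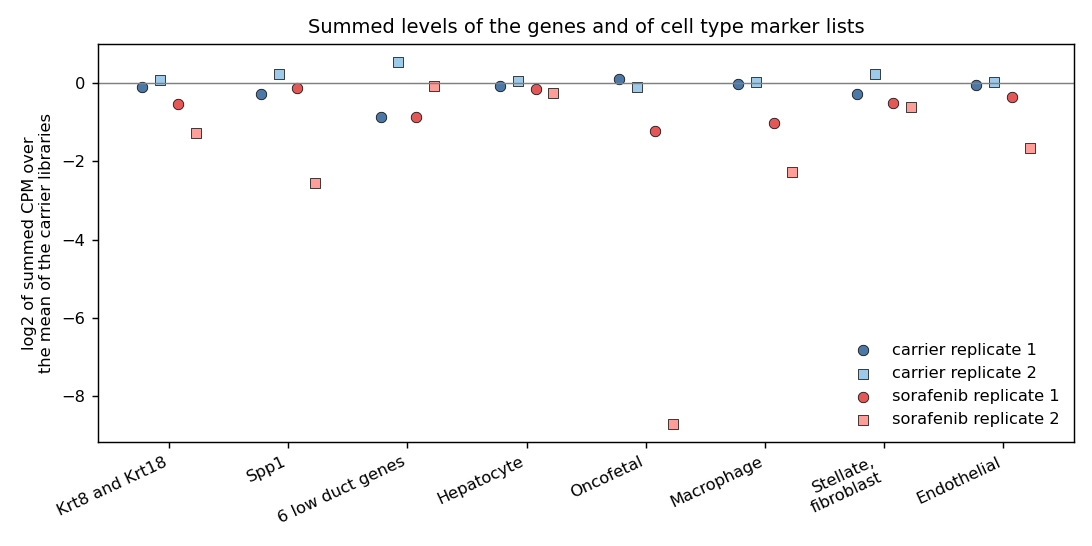
Summed CPM of Krt8 with Krt18, of Spp1, of the 6 low duct genes and of cell type marker lists, as log2 over the mean of the carrier libraries, 1 point per library. The oncofetal and macrophage sums are lower in both sorafenib libraries and lowest in S2. The hepatocyte sum, of which Alb is the largest part, stays near 0. Of its 15 markers, 9 are higher and 4 lower in both sorafenib libraries. The sum of the 6 duct genes in the sorafenib libraries lies within the carrier range or at its lower edge.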

How the data were processed

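Per the labels' protocols, stranded TruSeq libraries of poly(A) RNA from 100 ng of total RNA were sequenced from 1 end over 75 cycles. GRCm38, edgeR 3.22.5, Subread 1.6.3 and STAR 2.6.1c are listed, without roles, in the notes on processing from the submitters, and the strand setting of the counting is not given in the sources used here. The authors deposited CPM for 39179 genes per library. Whole reads, within 0.01, were recovered for 100% of the values above 0. 1 read equalled 0.169 to 0.246 CPM, and the floor of 3 reads, set beside counts of 0, was 0.506 to 0.738 CPM.

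The test was limma 3.58.1 (R 4.3.3) on log2(CPM + 1) with a variance trend, on the 13149 genes that reached 1 CPM in 2 or more libraries, two-sided, with Benjamini-Hochberg adjustment over all of them and a threshold of 0.05. Recovered reads went into edgeR 4.0.16 and DESeq2 1.42.0 as alternatives, beside other pseudocounts, filters and scaling factors and fits with each library left out. DESeq2 gave no adjusted p for 1530 genes, 3 members among them. Lengths and positions came from GENCODE M21 on GRCm38, and promoters from RefSeq on GRCm38.p6. The labels do not name separate mice, so p-values reflect only how far replicate libraries differ, possibly for technical reasons. A fit with 1 library left out assumes that the lone library varies like the other group.

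The members and the gene lists (215 symbols, 214 matched) were chosen with earlier results of these data known. Named genes were all members, the 2 genes with the smallest p per direction of each related list, and the 3 nearest profiles of 6 members. Others were chosen after their values were seen.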

Additional observations from a re-analysis of the deposited data

How the results depend on the processing

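The count of members called was 0 in all settings tried except without sorafenib replicate 1 (4) and without sorafenib replicate 2 (1), so the leave-one-out range was 0 to 4. The median of the tested members was -0.90, and -0.56 with a pseudocount of 4, -0.65 with TMM factors, -0.63 with RLE factors, -0.63 with edgeR's quasi-likelihood test, -0.62 with DESeq2, and -0.97 to -0.22 when a library was left out. Krt8, Krt18, Krt19, Krt23 and Spp1 kept a negative fold change in every setting. Sign changes came only from leaving out a library: Krt7 (range -0.72 to 0.15) was at 0.13 and 0.15 without carrier replicate 2 and sorafenib replicate 1, Cldn7 (-0.53 to 0.12) at 0.02 and 0.12 without the same libraries, Sox9 (-0.52 to 0.76) at -0.52 and -0.02 without carrier replicate 1 and sorafenib replicate 1, and Epcam (-0.083 to 1.12) at -0.083 without carrier replicate 1. The log2 ratio differences, left out library by library after the data were seen, ran from -0.077 to 0.10 for Krt18 to Krt8 (-0.04 without carrier replicate 1, -0.077 without sorafenib replicate 1), from -1.74 to 1.07 for Krt19 to Krt18 (0.05 without carrier replicate 2, 1.07 without sorafenib replicate 1) and from -0.11 to 1.37 for Krt7 to Krt8 (-0.11 without sorafenib replicate 2). The cause of these changes was not tested. The replicate numbers are not known to pair libraries: deviations of same-numbered libraries correlated at 0.15 across genes, which are not independent, and with the replicate number as a block 0 members were called and the median stayed at -0.90 (4 members and 3185 genes at an unadjusted p under 0.05, against 3 and 2529 without it). The ratio of Cldn7 to Cldn4 was not run because Cldn4 had at most 3 reads. For the 6 duct genes with at most 30 reads per library, depth limits what can be seen.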

Other observations

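Genes of desmosomes, which join keratin filaments of neighboring cells, and of filament linkers had unequal values. Dsp, Jup and Pkp3 overlapped between the groups, at log2 fold changes of -0.11, -0.27 and -0.18, and Pkp2 was at -0.31. Dsg2, a desmosomal cadherin, was at 90.3 CPM in C1, 105.8 in C2, 121 in S1 and 144.9 in S2, a difference of 0.43 on the log2 scale (SE 0.22) at a limma adjusted p of 0.308. Ppl, the linker periplakin, was at 74.7 and 104.7 against 61 and 39.8 CPM, a difference of -0.83 on the log2 scale (SE 0.30) at a limma adjusted p of 0.258. Plec, the linker plectin, was at 266.6 and 211.5 against 189.1 and 136.9 CPM, a difference of -0.56 on the log2 scale (SE 0.25) at a limma adjusted p of 0.277. These genes were named after their values were seen.

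Dmbt1, a mucosal defence glycoprotein of ducts, was at 4.15 CPM in C2, at 0.246 CPM in S1 and at 0 in C1 and S2. It did not reach the filter, and it was highest in the library with the highest Krt19, Krt23 and Sox9.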
